A study of Mus musculus with 4 samples.

Results

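Cytosolic ribosomal protein genes encode the protein parts of the ribosome's large subunit (Rpl and Rplp names) and small subunit (Rps names and Rpsa). They are housekeeping genes, transcribed strongly in dividing cells, and many of their messages begin with a terminal oligopyrimidine (TOP) tract, a C followed by a run of pyrimidines through which mTOR signalling controls their translation. Methylation of lysine 4 of histone H3 (H3K4) marks the start of active genes, and resting B cells that receive an activating signal raise ribosome production as they grow and divide. PA1 binds PTIP, and both belong to the MLL3/MLL4 complex, which methylates H3K4.

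The genes were chosen by name: protein-coding genes of the GENCODE vM1 annotation (mm9) called Rpl or Rps with a number, Rplp0, Rplp1, Rplp2 or Rpsa, without the Rps6k kinases. The rule found 83 of 22367 protein-coding genes on the nuclear chromosomes (0.371%), 50 of the large subunit and 33 of the small subunit. The measurement was chromatin immunoprecipitation sequencing (ChIP-seq) on native chromatin cut to mononucleosomes with micrococcal nuclease (MNase). The mice were 6 to 14 weeks old. Their splenic B cells were purified by removing CD43-bearing cells and then activated for 2 days with LPS at 25 µg/ml plus either dextran-coupled anti-IgD at 2.5 ng/ml or IL-4 at 5 ng/ml. The series has 4 samples. The PA1-KO and the PA1-WT sample whose antibody is labelled H3K4 were compared, and the other 2 were not analysed here. For the compared pair the labels do not say which methylation state was precipitated, which of the stimuli was used, how the PA1 allele was removed or how many mice were pooled.

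There was 1 library per genotype. Each ratio below therefore compares these libraries and has no replicate check, and each interval covers counting error only. Reads on nuclear chromosomes numbered 5259995 for the knockout and 5539475 for wild type. Over the PA1 promoter (2900092E17Rik in this annotation) the counts were 114 in the knockout and 261 in wild type (ratio 0.498, 95% interval 0.396 to 0.624); the deposited reads do not show whether the deleted part lies in that window. All 6 B cell markers fixed for the check, among them Cd79a, Cd79b, Ms4a1 and Pax5, passed the read minimum, with a median of 1002.5 reads over both libraries. Of the 5 T cell markers only Lck did, and the list's median was 3 reads; of the 4 myeloid markers 2 passed (Cebpa and Itgam), and of the 3 erythroid markers 1 passed (Klf1). Csf1r had 0 reads and Cd3e had 1. In bulk chromatin, a change in the share of cells that carry a mark and a change in the mark per cell cannot be told apart.

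Sequence at the starts is shown first, because much of what follows is about where reads lie relative to them. The RefSeq promoter table (build GRCm38.p6) holds 61 of the 83 genes, and each of these 61 sequences was located by exact match in NCBIM37, the assembly of mm9. The other 22 have no entry in it, among them Rpl3, Rpl7, Rpl8, Rpl17, Rpl36, Rplp1 and Rps27a. The 3 promoters below are those of Rpl26, whose ratio was the highest, of Rpl10a, whose interval lay farthest below 1, and of Rpl4, the gene with the most reads. Each runs 5′ to 3′ on the gene's strand, from 120 bases before the RefSeq start to the 30th base of the transcript, in mm9 coordinates. The 4th gene due by the same rule, Rpl36, has no entry. The ratios behind this choice were counted within 1 kb of a start that can differ from the RefSeq start. The counted start lay 1287 bp downstream of the RefSeq start in Rpl26 and 807 bp downstream in Rpl10a. Within 1 kb of the RefSeq start, Rpl26 (1.21) was not the highest, and Rpl7l1 stood at 1.28. Capitals mark matches to CCGGAAG, the core that ETS-family factors such as GABP recognise, or to a TOP tract, taken as C followed by at least 4 of C or T and beginning within 10 bases of the start. A tract taken in this way can end before the annotated start, as it does in Rpl10a, and is then outside the annotated transcript.
Rpl26 (chr11:68714948-68715097, + strand): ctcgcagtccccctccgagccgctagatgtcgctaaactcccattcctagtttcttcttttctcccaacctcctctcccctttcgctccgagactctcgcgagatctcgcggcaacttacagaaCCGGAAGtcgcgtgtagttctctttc
Rpl10a (chr17:28465296-28465445, + strand): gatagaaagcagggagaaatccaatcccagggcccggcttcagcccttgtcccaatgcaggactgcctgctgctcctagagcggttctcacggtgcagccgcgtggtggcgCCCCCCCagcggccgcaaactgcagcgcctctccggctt
Rpl4 (chr9:64021074-64021223, + strand): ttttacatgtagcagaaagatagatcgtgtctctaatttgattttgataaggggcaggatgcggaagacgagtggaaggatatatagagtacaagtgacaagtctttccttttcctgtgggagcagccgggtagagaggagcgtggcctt
These 150-base stretches were almost free of reads. The knockout and wild-type libraries had 1 and 1 read there for Rpl26, 3 and 5 for Rpl10a, and 5 and 6 for Rpl4. The Rpl4 stretch holds none of the motifs searched.

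CCGGAAG, on either strand, was found in 23 of the 61 promoters of 300 bases (37.7%), compared with 11.9% of 14861 protein-coding promoters in the table and 18.5% of the 8638 among them that passed the read minimum. AAGATGGC, the YY1 motif, was found in 5 (8.20%, against 4.72% of the promoters that passed the minimum): Rpl13a, Rpl35a, Rpl7l1, Rps15a and Rps27. GGGCGG, bound by SP1 and KLF factors, was found in 36 (59.0%, against 66.5%). TATAAA in the stretch from 50 to 10 bases before the start, on the gene's strand, was found in Rpl22l1 alone (1.64%, against 1.16%). A TOP tract was found in 36 of 61 (59.0%, against 32.1%), counting tracts that end before the annotated start, as in Rpl10a and Rpl6. CCGGAAG ends and AAGATGGC begins with AAG, so 1 stretch can hold both. A match is a description of the letters, and these shares say nothing of binding.

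The windows below, 15 bases either side of the start, show tracts of different kinds in genes described further on. In Rpl38 the tract begins at the first base of the transcript, in Rpl18 it begins just after it, and in Rps24, Rpl7a, Rplp2 and Rps10 it begins before the annotated start.
Rpl38 (chr11:114529879-114529908, + strand): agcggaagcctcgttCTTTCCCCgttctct
Rpl18 (chr7:52973426-52973455, + strand): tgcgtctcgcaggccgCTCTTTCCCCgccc
Rps24 (chr14:25309885-25309914, + strand): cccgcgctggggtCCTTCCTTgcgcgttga
Rpl7a (chr2:26766312-26766341, + strand): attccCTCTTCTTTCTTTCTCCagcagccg
Rplp2 (chr7:148633535-148633564, + strand): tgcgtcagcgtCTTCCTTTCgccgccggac
Rps10 (chr17:27772175-27772204, - strand): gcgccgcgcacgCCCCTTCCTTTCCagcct
The 33 genes with a TOP tract and at least 50 reads had a median log2 ratio of 0.07, and the 25 without one had 0.15. For CCGGAAG the medians were 0.06 in 22 genes with it and 0.13 in 36 without it. These are descriptions of small groups with no test.

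Promoter signal was counted within 1 kb of 1 transcription start site (TSS) per gene, the annotated one with the most reads. Of the 83 genes, 79 had at least 50 reads in both libraries combined and were compared. Their median was 650 reads, against 462 over all 12186 promoters compared. In normalized RPM (reads per 1000000 nuclear reads, with the libraries scaled to each other) the median was 62.5 in the knockout library and 58.6 in wild type, against 42.6 and 42.2 over all promoters compared. Rpl4, a protein of the peptide exit tunnel, had the most reads, with 508 in the knockout and 482 in the wild-type library. It was followed by Rpl18 with 469 and 504, Rpl13a with 467 and 453, and Rps27a with 480 and 439. Rps27a encodes a fusion of ubiquitin and a small-subunit protein. At the other end were Rpl36 with 97 and 139 reads, Rplp0 with 144 and 165, Rpl17 with 172 and 177, Rps4x with 208 and 222, and Rps23 with 217 and 213. Every other tested gene lay between Rps23 and Rps27a in combined reads.

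The 4 genes under the minimum are paralogs. Rpl10l, a copy of Rpl10 known from testis, had 0 reads in both libraries, which allows up to 3 reads, or 0.594 RPM in the knockout and 0.520 RPM in the wild-type library. Rpl39l had 0 knockout reads and 2 wild-type reads, Rpl3l, the copy of Rpl3 used in muscle, had 1 and 6, and Rps4y2 had 11 and 5. Their parent genes Rpl10 (282 and 294), Rpl39 (316 and 286), Rpl3 (415 and 389) and Rps4x (208 and 222) all had at least 208 reads in each library. Other paralogs had read numbers of the same order as their parents. Rpl7l1 had 356 and 319 reads beside 363 and 381 for Rpl7, Rpl22l1 had 243 and 233 beside 270 and 316 for Rpl22, and Rps27l had 301 and 349 beside 284 and 278 for Rps27. Near-identical copies limit where 25-base reads can be placed: over the 79 compared windows, a median of 89.7% of the 25-base words occur 1 time in the genome, with 60.6% in Rps2 and 63.1% in Rpl37a as the lowest, and 66.3% in the window of Rpl10l. The sources used here do not say how reads with several matches were treated.

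The signal was broad for short genes. Stretches of enrichment at the counted TSS had a median width of 3200 bp, against 2000 bp over all promoters compared, and they covered a median of 76.9% of the gene, against 7.31%. Ribosomal protein genes are short, with a median length of 3243 bp against 23018.5 bp, so the coverage was also taken over genes of like length. Among 752 other genes between the 25th and 75th percentile of the members' length, the median width was 2000 bp and the median coverage 36.1%. The 39 ribosomal protein genes in that range had 3200 bp and 75.5%. Reads were not matched, with medians of 662 in the 39 genes and 456 in the 752. Spearman's rho between width and reads was 0.69 over all promoters compared, and the part of reads in the width was not tested. Translation factors also had a median width of 3200 bp, with a median of 546 reads, and the 6 B cell markers had 6200 bp. Ribosome biogenesis genes had 2600 bp and mitochondrial ribosomal protein genes 2000 bp. Whole coverage was found for 17 of 79 ribosomal protein genes (21.5%), among them Rps12, Rpl28 and Rplp1, and for 2.16% of all genes compared. At like length it was 5 of 39 (12.8%) against 26 of 752 other genes (3.46%). The widest, 9000 bp, lay over Rpl13a on chromosome 7.

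No ribosomal protein promoter was called different between the libraries. A call needed a knockout to wild-type ratio of 1.5-fold or more in either direction, together with a 95% interval that left out 1. Of all 12186 promoters compared, 0.665% were called higher and 4.9% lower in the knockout library. The counts among the 79 were 0 and 0. Ratios ran from 0.796 to 1.31, with 56 above 1 and 23 below. Over all promoters compared, 6122 lay above 1 and 6064 below. Intervals lay above 1 for 16 genes, where 10.1% of all promoters did so, and below 1 for 2 genes, where 11.4% did so. Reads were not matched in these shares, with medians of 650 in the 79 genes and 462 over all promoters compared.

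**Figure D1:**
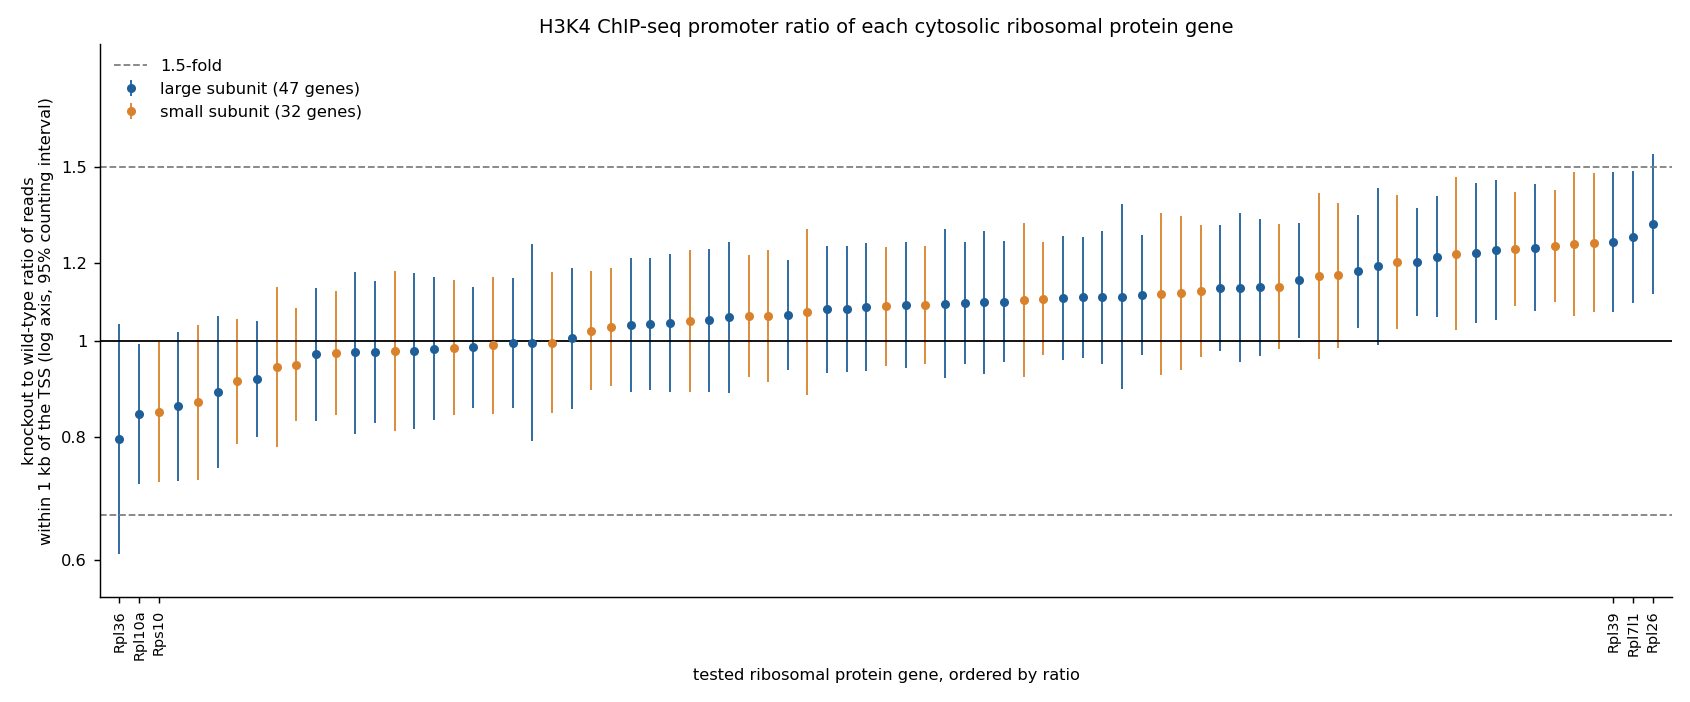
Ratio of knockout to wild-type reads within 1 kb of the TSS (log axis) for each of the 79 tested ribosomal protein genes, ordered by ratio, with 95% counting intervals and the 3 lowest and 3 highest genes named; blue points are large-subunit and orange points small-subunit genes, and dashed lines mark 1.5-fold. All ratios lie between 0.796 and 1.31, inside the dashed lines, and both subunits are spread along the whole order.

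Among large-subunit genes, Rpl26 was highest, with 321 knockout and 279 wild-type reads (ratio 1.31, 1.11 to 1.55). Rpl7l1 followed at 1.27 (1.09 to 1.49), Rpl39, which lines the exit tunnel, at 1.26 (1.07 to 1.48), and Rpl24, which bridges the subunits, at 1.24 (1.07 to 1.44; 377 and 346 reads). In the small subunit, the genes with the highest lower bounds were Rps27a at 1.25 (1.09 to 1.42) and Rps12 at 1.24 (1.08 to 1.42), the latter with 467 and 430 reads. In these 6 genes the knockout library had more reads although it was the smaller library. Rps25 at 1.26 (1.07 to 1.48) and Rps26 at 1.25 (1.06 to 1.48) had higher ratios than Rps27a, with lower bounds nearer to 1. At the low end of the large subunit were Rpl10a, a protein of the L1 stalk, with 258 and 349 reads (0.844, 0.715 to 0.994), Rpl6 with 234 and 311 (0.859, 0.722 to 1.02), Rpl36 with 97 and 139 (0.796, 0.608 to 1.04) and Rpl7a with 394 and 491 (0.916, 0.800 to 1.05). In the small subunit the lowest were Rps10 with 263 and 354 reads (0.848, 0.720 to 0.997) and Rps7 with 215 and 283 (0.867, 0.723 to 1.04). Only Rpl10a and Rps10 among the 79 had an interval below 1. Within 1 kb of the RefSeq start instead, which lay 990 bp from the counted TSS in Rps10, the ratio of Rps10 was 0.869 (0.718 to 1.05). Rpl10a stood at 0.788 (0.621 to 0.996) there and Rpl26 at 1.21 (1.003 to 1.45). The 3 stalk proteins, which recruit translation factors to the large subunit, lay close to 1: Rplp0 at 0.996 (0.791 to 1.25), Rplp1 at 1.04 (0.891 to 1.21) and Rplp2 at 0.996 (0.856 to 1.16). Rpsa, which is also known as the laminin receptor precursor, stood at 1.23 (1.03 to 1.47; 259 and 241 reads).

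The typical ratio was a little above 1. The median log2 ratio was 0.12 (a ratio of 1.08) over the 79 genes and 0.00 over all promoters compared. Reads summed over the 79 genes gave 25133 and 26668, a ratio of 1.08 (1.06 to 1.09). The large subunit gave 1.08 (1.06 to 1.10) over 47 genes and the small subunit 1.07 (1.04 to 1.10) over 32. The value follows the scaling: all promoters compared moved by -0.26 on the log2 scale when the libraries were scaled to reads over 5 kb from any TSS, and the genes' median was then -0.14. It also moved when trends of the ratio were removed. The median was 0.06 without the trend along GC content, 0.06 without the trend along level and 0.02 without both.

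GC content separated high from low ratios within the group. Spearman's rho between ratio and GC content of the 2 kb window was -0.63 over the 79 genes and -0.52 over all promoters compared. These are correlations across genes within 1 pair of libraries, which all share those libraries, and they have no p. With the level of reads, rho was 0.15 over the 79 genes and 0.44 over all. Rpl26 had 45.0% GC and Rpl10a 59.3%. Among promoters with 49.6% to 51.2% GC, the median log2 ratio was 0.14 over 14 ribosomal protein genes and 0.09 over all 1191 promoters. At 52.8% to 54.1% GC it was 0.12 over 14 and 0.02 over 1193, and at 55.6% to 57.2% GC it was -0.04 over 10 and -0.05 over 1222. The ribosomal protein genes had the lower median only at 59.2% to 61.8% GC, with -0.19 over 2 and -0.16 over 1223. The part of GC content in the ratios was not tested. The SD of log2 ratios over the 79 genes was 0.16, of which counting error alone would give 0.12, and it was 0.11 once both trends were removed. Over all promoters compared these values were 0.32, 0.18 and 0.24.

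**Figure D2:**
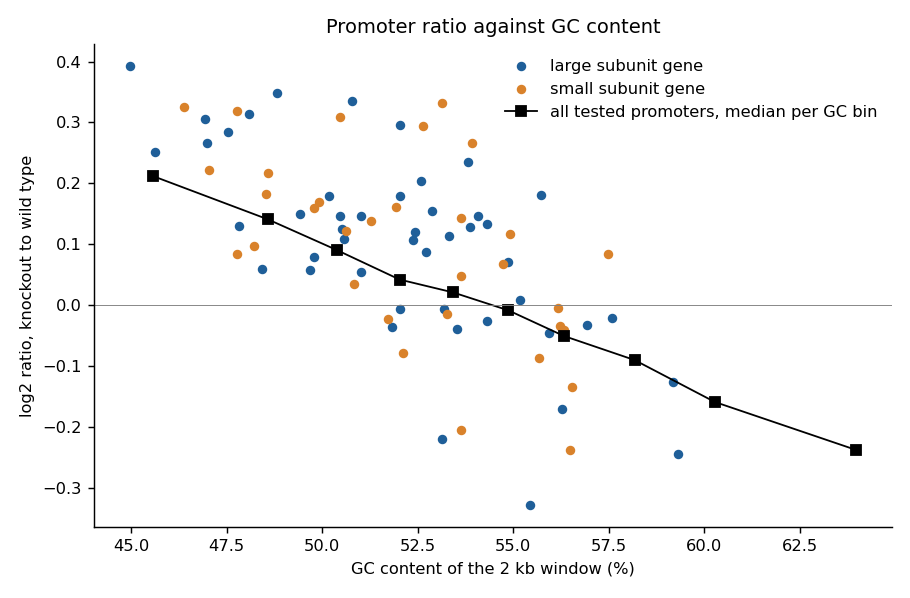
Log2 ratio of knockout to wild type against GC content of the 2 kb window for the 79 tested ribosomal protein genes (points, coloured by subunit), with the median of all tested promoters in each of 10 equal bins of GC content (squares joined by a line). Ribosomal protein genes fall with GC content, from Rpl26 at 45.0% GC to Rpl10a at 59.3% GC, along a line that falls in the same direction.

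Where the reads lay was examined around the RefSeq start, for the 58 located genes with at least 50 reads around it. The counted TSS lay downstream of the RefSeq start for 44 of these genes, at it for 10 and upstream of it for 4. It lay more than 200 bp away for 24 of 58 (41.4%), against 25.5% of all 8642 promoters both located and compared. The largest distances were 1575 bp in Rps9, 1367 bp in Rpl27, 1341 bp in Rpl22 and 1287 bp in Rpl26. The share of reads downstream of the counted TSS was lowest in Rpl22 (18.1%), Rpl27 (19.6%) and Rpl26 (23.5%) and highest in Rps24 (97.8%), Rpl8 (97.3%) and Rpl38 (97.1%). The median share was 62.7% in the knockout and 63.4% in the wild-type library. In 40 bins of 50 bp, Rps3, Rpl8 and Rps24 were most like the mean profile of the other members (r of 0.88, 0.87 and 0.87). Least like it were the 3 genes with the lowest downstream share, Rpl26, Rpl22 and Rpl27 (r of -0.76, -0.60 and -0.45).

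Around the RefSeq start the genes showed a deep gap followed by phased nucleosomes. Density, relative to an even spread over the 2 kb, fell to 0.0849 in the knockout and 0.0647 in the wild-type library 5 bp before the start. Over all 8248 located promoters the lowest density was 0.376 and 0.434, at 45 bp before the start. The first 3 peaks downstream lay at 145, 335 and 495 bp in the ribosomal protein genes and at 125, 325 (315 in wild type) and 505 bp over all. The third peak was the tallest of the 3 in the ribosomal protein genes, at 1.92 in the knockout and 2.02 in the wild-type library. Over all promoters the first and the third were of about equal height in the knockout library, both at 1.64, and the first was the tallest in wild type, at 1.92, with the third at 1.64.

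**Figure D3:**
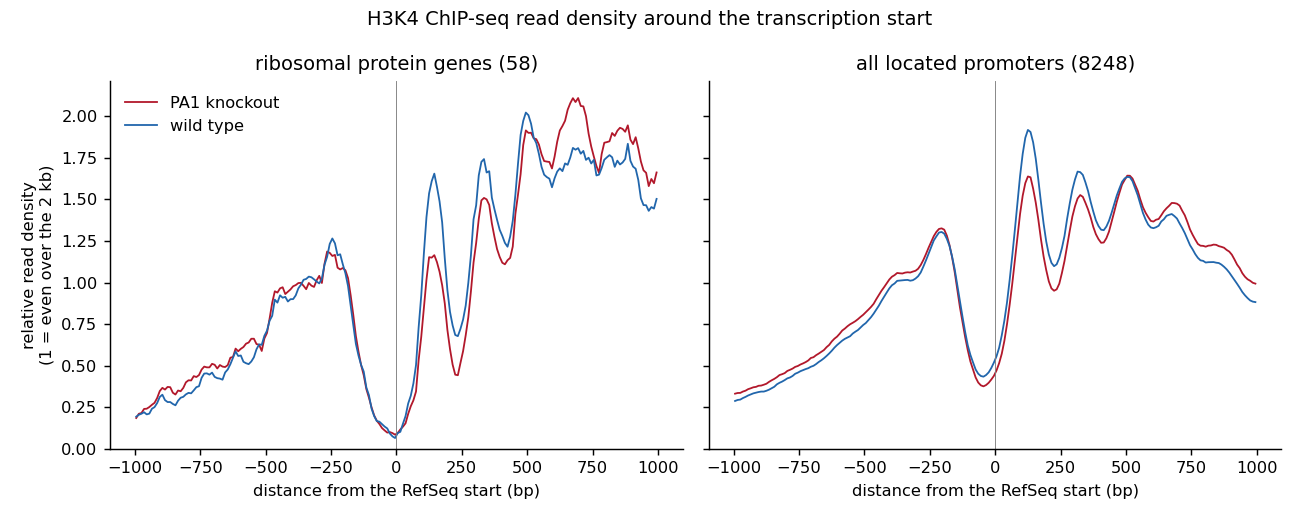
Relative read density (1 is an even spread over the 2 kb) by distance from the RefSeq start in 10 bp bins smoothed over 50 bp, for 58 ribosomal protein genes (left) and 8248 located promoters (right); red is the knockout and blue the wild-type library. The gap at the start is deeper in the ribosomal protein genes, and the knockout line lies under the wild-type line at the first 2 peaks after the start and over it from 600 bp on.

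The libraries differed along this profile. Zones were chosen after the profile had been seen. From 50 to 250 bp after the start, the site of the first nucleosome, the counts over the 58 genes were 1196 in the knockout and 1729 in wild type (ratio 0.789, 0.733 to 0.850), and wild type was higher in 47 of 58. From 600 to 1000 bp they were 5865 and 5641 (ratio 1.19, 1.14 to 1.23), and the knockout was higher in 53 of 58. Over all 8248 promoters the ratios had the same directions, 0.855 (0.850 to 0.860) and 1.10 (1.09 to 1.10). Of all promoters with reads in the zone, wild type was higher in 6227 of 8169 in the first. In the second the knockout was higher in 5015 of 8121 (61.8%). Intervals lay below 1 in the first zone for 8 of the 58 genes, against 6.38% of all, and above 1 in the second for 15, against 10.5% of all. Reads were not matched in these shares. In wild type the 58 genes had 25.8 normalized RPM per kb in the first zone, against 27.7 over all promoters. In the second zone the values were 42.2 and 24.5. The ribosomal protein genes with an interval below 1 in the first zone were Rpl11, Rpl13, Rps10, Rps24, Rpl6, Rps6, Rpl9 and Rpl36a. Rpl11, which with Rpl5 carries the 5S ribosomal RNA, had 8 knockout and 28 wild-type reads there, and Rps6, the substrate of S6 kinase, had 18 and 39. In the second zone Rpl4 had 129 and 98 reads and Rpl39 had 130 and 99. GC content differed between the zones, with 65.7% in the first and 47.2% in the second over the ribosomal protein genes and 66.1% and 50.1% over all promoters; its part in these ratios was not tested.

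From 2 to 4 kb after the start the direction turned. The median length of the 79 compared ribosomal protein genes was 3243 bp, so this zone runs past the annotated end of many of them. Counts over the 58 genes were 2026 in the knockout and 2862 in wild type, or 3.46 and 4.28 normalized RPM per kb of the zone (ratio 0.808, 0.763 to 0.856). Wild type was higher in 45 genes and the knockout in 13. All 8248 promoters had a ratio of 1.09 (1.08 to 1.09) over the same zone, with the knockout higher in 4464 of 7964 that had reads there. Among 624 other genes of like length the ratio was 1.02 (1.0004 to 1.05), with the knockout higher in 283 of 601. Among 1218 other genes with like read numbers in the zone it was 1.04 (1.03 to 1.06), with the knockout higher in 661 of them. GC content of the zone was 45.9% in the ribosomal protein genes, 45.1% over all promoters, 49.0% in the genes of like length and 44.1% in those of like read numbers. In the 49 ribosomal protein genes with no TSS of another gene from 1 to 5 kb downstream, the ratio was 0.811 (0.760 to 0.865). Without the members on chromosome 7, which carries PA1, it was 0.802.

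**Figure D4:**
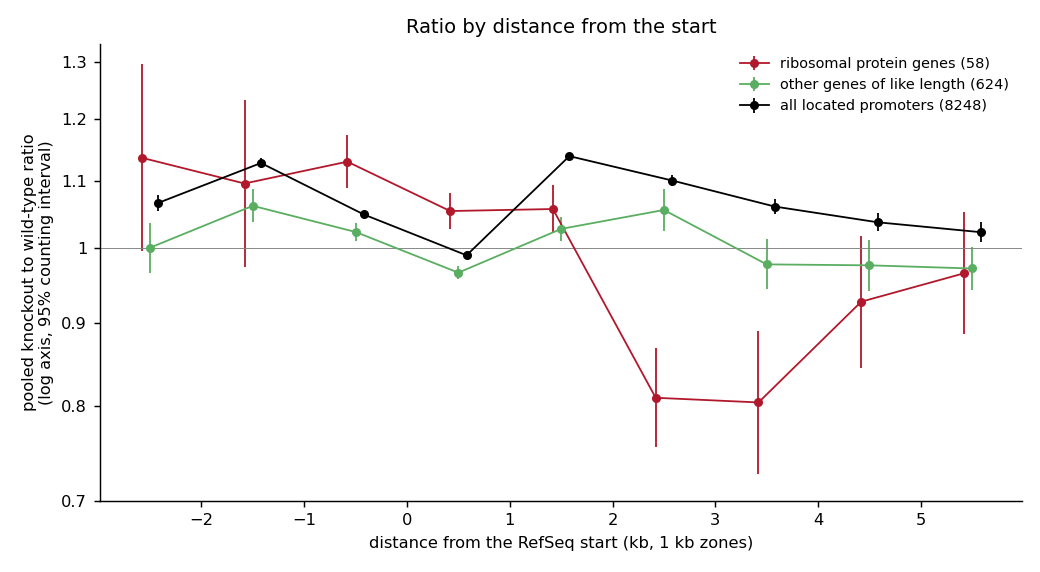
Pooled ratio of knockout to wild-type reads (log axis, 95% counting intervals) in 1 kb zones from 3 kb before to 6 kb after the RefSeq start, for 58 ribosomal protein genes, 624 other genes of like length and all 8248 located promoters. In the zones from 2 to 4 kb the ribosomal protein genes lie at 0.810 and 0.804, and both other groups lie between 0.977 and 1.10.

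Single genes show how this zone was made up. Rpl13a, which is not among those 49 genes, had 56 knockout and 121 wild-type reads (ratio 0.528, 0.378 to 0.731), Rps3, at the entry of the messenger RNA channel, had 73 and 135 (0.617, 0.458 to 0.826), and Rpl23 had 50 and 88 (0.648, 0.449 to 0.928). The interval also lay below 1 for Rpl9 (19 and 47 reads), Rpl37 (27 and 54), Rps10 (42 and 73), Rps7 (20 and 41), Rpl22 (7 and 21), Rpl19 (5 and 19) and Rps26 (4 and 15). These 10 of 58 stand beside 2.87% of all promoters whose interval lay below 1. All 8248 promoters together had fewer reads in the zone, at 2.16 normalized RPM per kb in wild type against 4.28 in the ribosomal protein genes. It lay above 1 for 0 of the 58, against 5.42% of all promoters. The genes with the most reads in the zone spanned a range of ratios. Rps2 had 190 and 236 (0.919, 0.755 to 1.12), Rps9 had 160 and 221 (0.826, 0.670 to 1.02), Rps19, the gene most often mutated in Diamond-Blackfan anaemia, had 136 and 161 (0.964, 0.762 to 1.22), and Rps24 had 115 and 127 (1.03, 0.796 to 1.34). Without Rpl13a, Rps3 and Rps9, which lowered the pooled value most, it was 0.831 (0.781 to 0.885). Some genes had an interval above 1 at the promoter and below 1 in this zone. Rps26 had a ratio of 1.25 (1.06 to 1.48) within 1 kb of its TSS and 0.304 (0.0735 to 0.955) from 2 to 4 kb, and Rpl13a had 1.18 (1.03 to 1.34) and 0.528. The annotated gene of Rps26 is 1977 bp long, so its whole 2 to 4 kb zone lies past its end.

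**Figure D5:**
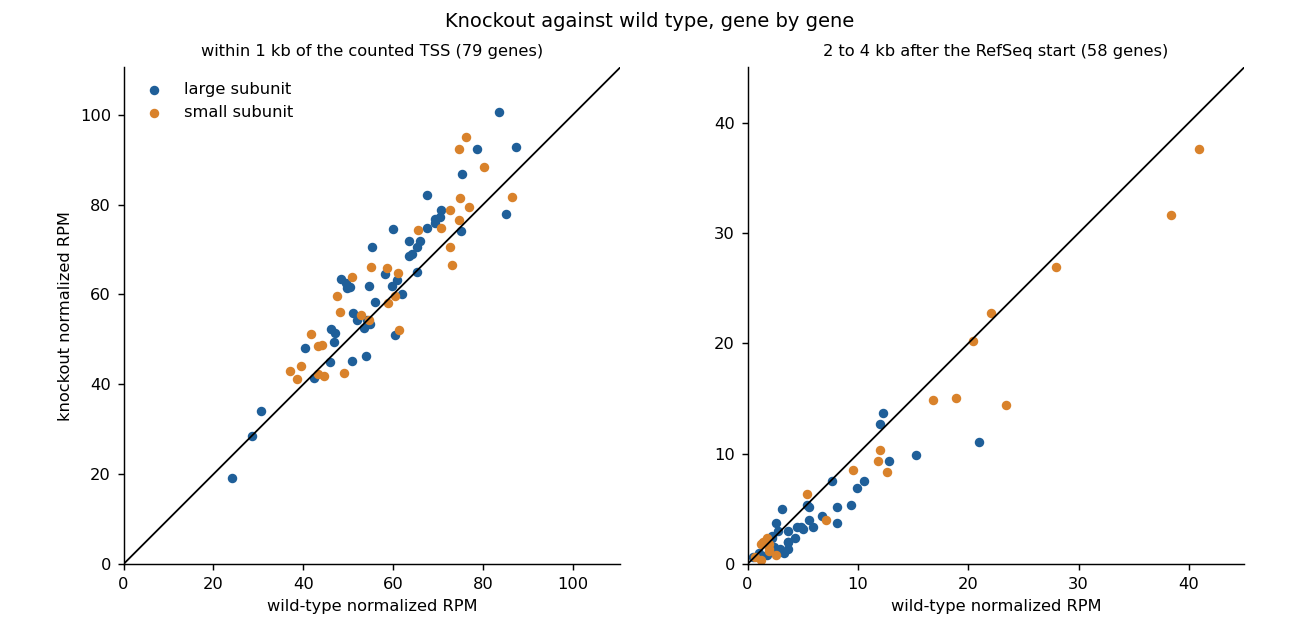
Normalized RPM in the knockout against the wild-type library for each ribosomal protein gene, within 1 kb of the counted TSS (left, 79 genes) and from 2 to 4 kb after the RefSeq start (right, 58 genes); the line marks equal values. On the left 56 of 79 points lie above the line, and on the right 45 of 58 lie below it. Over all promoters, which are not drawn, 6122 of 12186 had a ratio above 1 within 1 kb. From 2 to 4 kb the knockout was higher in 4464 of 7964 located promoters with reads there.

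Other genes of protein synthesis gave ratios of similar size within 1 kb of the TSS. The 4 ribosomal protein genes whose names fall outside the rule had a median log2 ratio of 0.07, with Fau highest at 1.16. Translation factors (21 genes, 0 called) had 0.03, from Eif5 at 0.697 (0.572 to 0.848) to Eif3e at 1.20 (0.990 to 1.45). Ribosome biogenesis genes (25, 0 called) had 0.09, from the RNA polymerase I factor Ubtf at 0.917 to Polr1a, the largest subunit of that polymerase, at 1.33 (1.14 to 1.56). Mitochondrial ribosomal protein genes (76) had 0.08, and Mrpl45 was called higher at 1.60 (1.31 to 1.97; 232 and 165 reads), while Mrpl14 was lowest at 0.786. The 17 members linked to Diamond-Blackfan anaemia had 0.13, with Rps10 lowest and Rpl26 highest.

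The knockout library differed from wild type in mismatches to the reference on chromosome 7, which holds 14 of the ribosomal protein genes. Reads with a mismatch made up 11.8% of knockout and 8.63% of wild-type reads at those 14 promoters, and 8.10% and 7.29% at the other 65. Most of the gap lay in Rpl18 (119 knockout and 66 wild-type reads with a mismatch), Rps13 (101 and 64) and Rps15a (97 and 66), which were picked for it, with 25.0% and 14.3% together. The remaining 11 had 7.54% and 6.79%. Over all promoters compared the shares were 11.0% and 8.59% on chromosome 7 and 8.42% and 7.74% elsewhere. The median log2 ratio of the 14 was 0.09 and that of the other 65 was 0.12. What part the mismatches have in the ratios was not tested.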

How the data were processed

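Each line of the deposited files is a mapped read with its chromosome, start, end, match descriptor and strand, and the authors gave no normalized value. The submitters' processing notes name mm9 and SICER without a role or version, and no source used here names the aligner. Every line spans 25 bases and no position and strand repeats within a file. Positions were used as 1-based, since the descriptor letter of reads with 1 mismatch then equalled the NCBIM37 base in 100% of 15006 cases checked.

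Each 5′ end was moved 75 bp into the fragment. Reads within 1 kb of the annotated TSS with the most reads were counted, and promoters with at least 50 reads were compared. Scaling was by TMM (trimmed mean of M values, 30% trimmed by ratio, 5% by level) with numpy 2.4.6 and scipy 1.17.1. Ratios have exact conditional Clopper-Pearson 95% intervals, which cover counting error only, since each genotype has 1 library. Reads carry no molecular identifiers, and each position and strand holds at most 1 read per file. Level and GC trends were removed by lowess (span 0.3, statsmodels 0.14.6). Stretches of enrichment were 200 bp windows of at least 9 reads (Poisson probability under 1e-05, effective genome share 80%) joined across gaps of up to 200 bp. The counting and scaling were tested on simulated data. No test between genotypes was possible.

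The members, lists and alternatives were chosen with earlier results of these data known, and the distance zones and the RefSeq start were added after seeing the data. Genes are named by a fixed rule: those under 50 reads, the 6 highest and 6 lowest by the interval bound nearest to 1, the 5 with most and the 5 with fewest reads, the stalk genes and Rpsa, paralogs with their parents, the extremes of downstream share and of likeness to the mean profile (3 each), and the highest and lowest gene of each other list. Some genes due by this rule are not reported here. Genes named beside the zones, for breadth or for motifs were chosen after their values were seen. Promoter and start sequences are from RefSeq (GRCm38.p6), 250 bases before to 50 after the start.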

Additional observations from a re-analysis of the deposited data

How the results depend on the processing

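No ribosomal protein promoter was called under the main settings or any of the 15 alternatives (14 planned and the RefSeq start added after seeing the data). The size of the typical ratio did depend on them. The median log2 ratio was 0.12 as reported, 0.00051 with scaling to total nuclear reads, -0.14 with scaling to reads over 5 kb from any TSS, 0.056 with the level trend removed, 0.059 with the GC trend removed, 0.021 with both removed and 0.045 in 2 kb windows. The pooled ratio of 1.08 became 0.993, 0.901, 1.04, 1.04, 1.01 and 1.03 under those same settings, in that order, and 1.10 in 500 bp windows. The median downstream share of 63.0% became 61.2% in 500 bp windows, 66.4% in 2 kb windows, 70.8% with the outermost TSS, 68.2% at the RefSeq start and 62.5% without chromosome 7 members. The chromosome 7 difference in median log2 ratio, -0.04 as reported, was 0.033 at the RefSeq start. For the zones, the values under scaling to total nuclear reads and to reads over 5 kb from any TSS were 0.729 and 0.661 from 50 to 250 bp, 1.10 and 0.994 from 600 to 1000 bp, and 0.746 and 0.677 from 2 to 4 kb. Scaling settings move every ratio by the same factor; the cause of the other changes was not tested. No paired analysis was possible because each genotype has 1 library.

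Within 1 kb of the TSS, the ratio nearest to 1 whose interval left out 1 was 1.15, in Rpl37 with 874 reads. The width of an interval depends on the reads of the gene, so the smallest difference detectable at this depth varied between genes and was larger in those with fewer reads. There is 1 library per genotype, so no value here separates PA1 from any other difference between the libraries, and the 22 genes missing from the promoter table were left out of the zones.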
